A study of Mus musculus with 10 samples.

Results

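The genes described here carry the IL6 and IL1 signals that reach the acute-phase genes of the liver. They are 10 genes of the 55401 in the count files, chosen by symbol, with earlier results of these data known. Among them are the IL6 receptor genes Il6ra and Il6st, the IL1 receptor gene Il1r1, and the kinase genes Jak1 and Jak2. The others are the transcription factor genes Stat3, Cebpb and Cebpd, and the inhibitor genes Socs3 and Nfkbia. All 10 symbols matched 1 Ensembl identifier each, and all 10 passed the filter on low counts that left 12234 genes for testing. Liver RNA was sequenced from 5 WT and 5 THRB-KO mice, 1 library per mouse, with no treatment, on standard chow and a daily light-dark cycle. The sample titles give the strain as C57Bl6/J and the strain field as C56Bl6/J, and neither gives age, sex or the time of collection. In THRB-KO mice the thyroid hormone receptor beta gene Thrb is deleted in hepatocytes, from a floxed allele with an Afp-Cre transgene. Whether other cells of the liver keep the gene was not measured. Whether the WT mice carried the floxed allele or the Cre is not given in the sources used here.

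IL6 binds the IL6 receptor alpha chain, which then joins gp130, the product of Il6st, so that the kinases JAK1 and JAK2 phosphorylate STAT3. STAT3 enters the nucleus and switches on acute-phase genes together with its own inhibitor gene Socs3. IL1 binds IL1R1 and its partner IL1RAP, which act through MYD88 and the IRAK kinases on NF-kB, and NF-kB raises Nfkbia, the gene of the inhibitor that holds it in the cytoplasm. C/EBP beta and C/EBP delta act beside both on genes such as Saa1, which encodes serum amyloid A1, a plasma protein that hepatocytes secrete in inflammation. Much of this signalling runs through phosphorylation and protein turnover, which RNA levels do not measure.

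Short stretches upstream of Socs3, Nfkbia and Saa1 show letters that match the motifs of these factors before the feedback genes and the reference gene. They are RefSeq sequences of build GRCm38.p6, written along the strand of the gene with the matched letters in capitals.
Socs3, chr11:117969503-117969529, minus strand, STAT letters: aaaccagccTTCTTAGAAgggaggggg
Nfkbia, chr12:55492841-55492868, minus strand, NF-kB letters: caggctgcaGGGAAGTACCtagagggag
Nfkbia, chr12:55492658-55492685, minus strand, NF-kB letters: gactggcttGGAAATTCCCcgcgcctga
Saa1, chr7:46743146-46743171, minus strand, C/EBP letters: gtgctcccaTTGCACAAtgagggaga
Saa1, chr7:46743040-46743067, minus strand, NF-kB letters: ttttcccaaGGGTGGTGCCaggctgtcc
The letters searched were TTCNNNGAA for STAT, TTGCNNAA for C/EBP and, for NF-kB, GGG and CC with 5 bases of any kind between them, on both strands of the 250 bases before each start, and matches of the different motifs were allowed to overlap. Of the 32851 windows of all genes, 7.02% held the STAT letters, 45.8% the NF-kB letters and 9.56% the C/EBP letters. Windows were matched for 9 of the 10 genes, 10 windows in all because Il1r1 has a pair. The STAT letters were in the window of 1 gene, Socs3, the C/EBP letters in that of 1 gene, Il1r1, and the NF-kB letters in those of 6 genes, which for a motif this frequent says little. In Socs3 the STAT letters lie 154 to 146 bases before the RefSeq start, within an intron of 1 longer GENCODE transcript. The Socs3 window also held the NF-kB letters, 97 to 88 bases before the start, which are not shown above. A match is a description of the letters and not a measured binding site.

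Values are given as normalised CPM, counts scaled to library size with TMM factors, in mice 1 to 5 of each genotype. The 2 genotypes were tested in edgeR by quasi-likelihood, adjusting p by Benjamini-Hochberg over all 12234 genes, and a gene was called when its adjusted p was below 0.15, the threshold of the study, or in a stricter reading below 0.05. Fold changes are THRB-KO against WT. Total counts were 26477195 to 28590704 per library, and 3 counts, taken as the floor at or below which a level was not told from 0, were 0.105 to 0.113 CPM. Thrb itself was at 33.4, 34.2, 32.5, 33.5 and 32.9 in WT and at 25.1, 24.9, 28.7, 25.9 and 28.8 in THRB-KO livers. It was lower in each THRB-KO mouse than in any WT mouse, by a log2 fold change of -0.32 (SE 0.067, edgeR adjusted p = 0.036). Counts were taken over the whole gene in whole liver, so they do not show how complete the deletion in hepatocytes was. In 11 of 18 alternatives the adjusted p of Thrb was above 0.05, up to 0.13, and in all of them below 0.15. All 8 hepatocyte markers were tested and 0 were called, with Alb between 60312 and 96603 in every liver.

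None of the 10 genes was called between the genotypes, at either threshold, while most of the acute-phase genes tested fell. Over all genes, 4.08% were called at 0.15 and 1.35% at 0.05, so that a list of this size with no called gene lies close to the background. Of the 10 genes 8 were fitted lower and 2 higher in THRB-KO livers, with a median log2 fold change of -0.16 against 0.00054 over all genes tested. An unadjusted p below 0.05 was seen for 3 of them, Il1r1, Nfkbia and Jak1, against 13.6% of all genes. The genotypes overlapped in all 10 genes, and did not overlap in 3.64% of all genes. Among acute-phase genes known to respond to IL1 and IL6 together, 7 of 10 tested were called lower and 0 higher, and among those responding mainly to IL6, 6 of 11 tested were called lower and 0 higher. These downstream lists were drawn up when the fall of Saa1 was known, so their direction is not independent evidence.

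**Figure D1:**
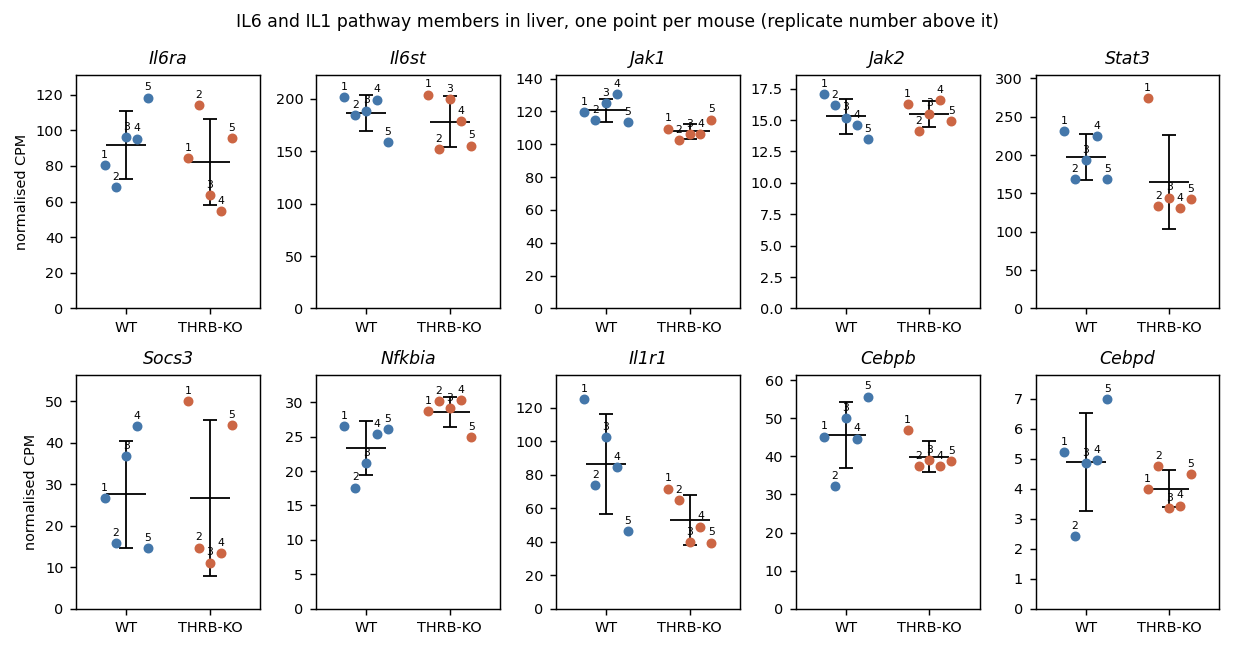
Normalised CPM (vertical axes, from 0) of the 10 genes in 5 WT and 5 THRB-KO livers, one point per mouse with its replicate number, with the mean and SD as bars. The genotypes overlap in every panel, and THRB-KO mouse 1 stands above the other 4 for Stat3 (274 against 130.4 to 145) and Cebpb (46.9 against 37.3 to 39.1).

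At the IL6 receptor the genotypes were alike within the spread between mice. Il6ra (ENSMUSG00000027947, chr3:89864059-89913196, minus strand) encodes the chain that binds IL6. It was at 80.5, 68.1, 96.3, 95.4 and 118 in WT and at 84.4, 114, 63.4, 54.5 and 95.6 in THRB-KO livers. Both genotypes spanned nearly the same range, with the lowest liver a THRB-KO one and the highest a WT one. This gave a log2 fold change of -0.16 (SE 0.20, edgeR adjusted p = 0.81), and 242 of its 8642 exon bases are shared with Gm42809 on the other strand, where unstranded counting drops reads.

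Il6st (ENSMUSG00000021756, chr13:112464070-112510086, plus strand) encodes gp130, the signalling chain that IL6 shares with LIF and oncostatin M. It was at 201, 185, 189, 199 and 158 in WT livers. In THRB-KO livers it was at 204, 152, 200, 179 and 155. The values overlapped almost wholly, and in each genotype 1 or more mice sat near 155. Their difference was a log2 fold change of -0.07 (SE 0.10, edgeR adjusted p = 0.85).

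The kinase genes below gp130 varied little between mice. Jak1 (ENSMUSG00000028530, chr4:101152367-101265282, minus strand) was at 119.7, 115, 125, 130.5 and 113 in WT and at 109, 103, 106, 106 and 115 in THRB-KO livers. In 4 of 5 THRB-KO mice it was below every WT mouse, and only mouse 5 reached the WT range. The mean was 120.7 ± 7.12 (SD, n = 5) against 108 ± 4.64 (SD, n = 5), a log2 fold change of -0.16 (SE 0.067) with an unadjusted p of 0.033 and an adjusted p of 0.32 in edgeR's quasi-likelihood test. Jak2 (ENSMUSG00000024789, chr19:29251828-29313080, plus strand), the second kinase that gp130 can use, was at 17.1, 16.2, 15.2, 14.6 and 13.5 in WT and at 16.3, 14.1, 15.5, 16.6 and 14.9 in THRB-KO livers. Every THRB-KO value of Jak2 lay inside the WT range, and the log2 fold change was 0.02 (SE 0.084, edgeR adjusted p = 0.96).

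Stat3 (ENSMUSG00000004040, chr11:100885098-100939540, minus strand), the factor that IL6 activates and whose own gene it also raises, was at 231, 168, 193, 225 and 169 in WT livers. In THRB-KO livers it was at 274, 133, 145, 130.4 and 143. THRB-KO mouse 1 had the highest value of all 10 livers, and the other 4 THRB-KO mice were below every WT mouse. With all mice the log2 fold change was -0.26 (SE 0.20, edgeR adjusted p = 0.63). Without THRB-KO mouse 1 it was -0.52 (SE 0.11, edgeR adjusted p = 0.046), past both thresholds, in a comparison in which 5.47% of 12156 genes were called at 0.15. Stat3 was the only one of the 10 genes called in that comparison. It shares 72 of its 9527 exon bases with Stat5a on the other strand.

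Socs3 (ENSMUSG00000053113, chr11:117966079-117970047, minus strand), the feedback inhibitor that STAT3 induces, varied most of the 10 genes. It was at 26.6, 15.8, 36.7, 44.1 and 14.6 in WT livers. It was at 50.1, 14.7, 11.1, 13.4 and 44.2 in THRB-KO livers. Both genotypes held low livers near 15, 1 WT and 2 THRB-KO livers were above 40, and the THRB-KO values fell into 2 high and 3 low livers with none between 14.7 and 44.2. The means were 27.6 ± 12.9 and 26.7 ± 18.8 (SD, n = 5 each), with a log2 fold change of -0.05 (SE 0.51, edgeR adjusted p = 0.98). Its sign turned when any of 5 single mice was left out, over a range from -0.40 to 0.19.

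In THRB-KO mouse 1, the liver with the highest Socs3 and the highest Stat3, Saa1 was at 66.1, in the middle of its genotype. That mouse was the highest of its group in 5 of the 10 genes and the lowest in 0 of them. Over all genes tested it was the highest of its group in 25.22% and the lowest in 23.85%. It was thus at one end in 49.1%, within the 28.98% to 51.84% of the 5 THRB-KO mice. Its Thrb value was as low as those of the others.

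On the IL1 side, Il1r1 was lower in most THRB-KO livers and Nfkbia higher, and neither passed the adjusted threshold. Il1r1 (ENSMUSG00000026072, chr1:40225080-40317257, plus strand) encodes the receptor chain that signals. It was at 125, 74.0, 103, 84.6 and 46.3 in WT and at 71.8, 65.1, 39.7, 49.1 and 39.6 in THRB-KO livers. Apart from WT mouse 5, each WT liver was above each THRB-KO liver, and WT mouse 5 lay among the lower THRB-KO values. On the log2 scale the fold change was -0.71 (SE 0.26), with an unadjusted p of 0.023 and an adjusted p of 0.28 in edgeR's quasi-likelihood test.

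The call for Il1r1 depended on the tool and on that mouse. Without WT mouse 5 the log2 fold change was -0.86 (edgeR adjusted p = 0.125), in a comparison in which 1.97% of 12154 genes were called. With DESeq2 it was -0.70 (adjusted p = 0.085) where 7.23% of genes were called, and with limma-voom -0.82 (adjusted p = 0.10) where 7.19% were called. Over all alternatives the adjusted p ran from 0.085 to 0.49.

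Nfkbia (ENSMUSG00000021025, chr12:55489410-55492647, minus strand) encodes the NF-kB inhibitor that IL1 induces again after its breakdown, and both stretches shown above precede it. It was at 26.5, 17.6, 21.2, 25.3 and 26.1 in WT livers. It was at 28.7, 30.1, 29.1, 30.3 and 24.9 in THRB-KO livers. In 4 of 5 THRB-KO mice it was above every WT mouse, and THRB-KO mouse 5 fell within the WT range. The means were 23.3 ± 3.86 and 28.6 ± 2.18 (SD, n = 5 each), a log2 fold change of 0.29 (SE 0.11) with the lowest unadjusted p of the 10 genes, 0.022, and an edgeR adjusted p of 0.27. Over the alternatives its adjusted p ran from 0.20 to 0.46.

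The genes whose level followed Nfkbia most closely across the 10 mice, after the mean of each genotype was removed, were Gstt1 (Pearson r = 0.94), Cyp2a5 (0.92), Pih1d1 (0.91), Nfe2l2 (0.91) and Dym (0.90). Gstt1 and Cyp2a5 are genes of detoxification, and Nfe2l2 encodes the oxidative stress factor NRF2. These r values are the highest of 12234 genes in the same libraries and are given as a description.

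The C/EBP genes were lower on average in THRB-KO livers, within the spread between mice. Cebpb (ENSMUSG00000056501, chr2:167688915-167690418, plus strand) encodes C/EBP beta, first known as a nuclear factor for IL6. It was at 45.2, 32.2, 50.04, 44.7 and 55.6 in WT and at 46.9, 37.4, 39.1, 37.3 and 38.7 in THRB-KO livers. Only WT mouse 2 was below the THRB-KO values, and 4 THRB-KO mice lay close together. The log2 fold change was -0.19 (SE 0.13, edgeR adjusted p = 0.56), and 312 of its 1504 exon bases are shared with Tmem189 on the other strand.

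Cebpd (ENSMUSG00000071637, chr16:15887286-15891031, plus strand) encodes C/EBP delta, which is low in resting liver and induced in the acute phase. It was at 5.22, 2.41, 4.86, 4.96 and 6.998 in WT livers. In THRB-KO livers it was at 3.99, 4.76, 3.36, 3.44 and 4.49. WT mouse 2 had the lowest value of all 10 livers, and the other 4 WT mice were above every THRB-KO mouse. The log2 fold change was -0.29 (SE 0.23, edgeR adjusted p = 0.64), and -0.46 (SE 0.16, edgeR adjusted p = 0.29) without WT mouse 2. These values rest on 69 to 187 counts per library, and 562 of its 3746 exon bases are shared with Spidr on the other strand.

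**Figure D2:**
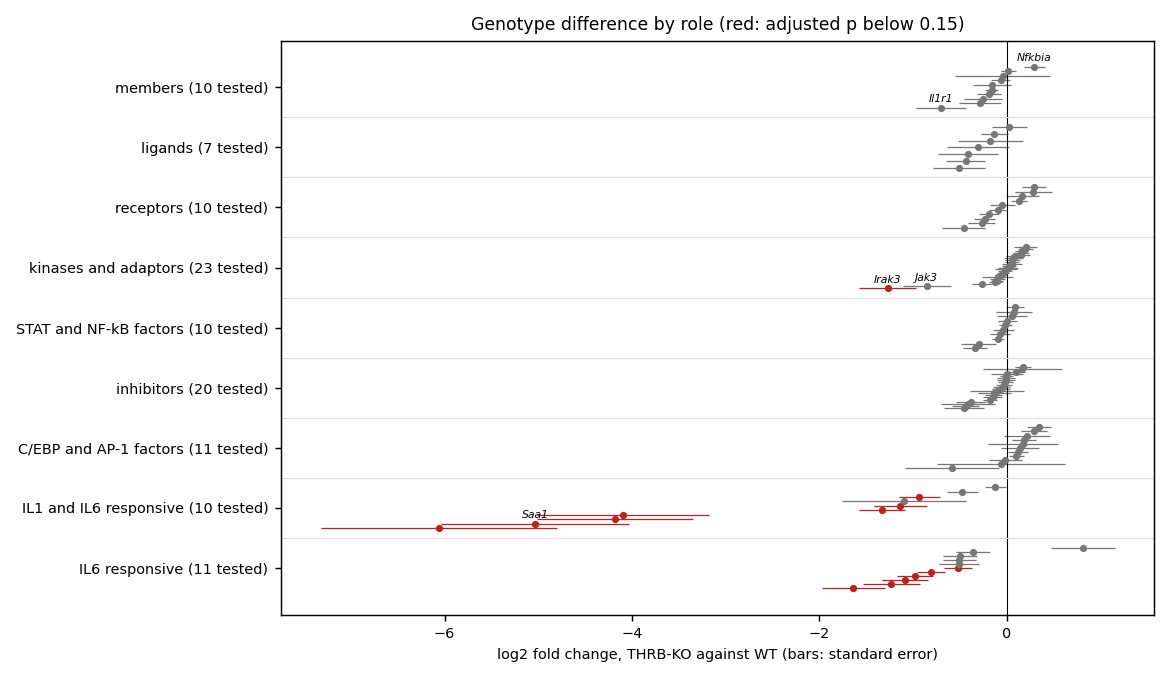
Log2 fold change (horizontal axis, THRB-KO against WT, bars are standard errors) of each tested gene, grouped by role, with genes past an adjusted p of 0.15 in red. None of the 10 genes in the top group is red, 1 of the 81 other pathway genes is (Irak3), and 13 acute-phase genes in the lowest groups are, with Saa1 at -5.03.

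Few of the further genes of these pathways, 99 in a list by role, differed between the genotypes. Of these, 81 were tested, 1 was called lower and 0 higher at an adjusted p below 0.15, where 2.57% of all genes were called lower, and the median log2 fold change was -0.02. The ligand genes gave 0 called of 7 tested, the receptors 0 of 10, the kinases and adaptors 1 of 23, the STAT and NF-kB factors 0 of 10, the inhibitors 0 of 20 and the C/EBP and AP-1 factors 0 of 11.

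The gene called was Irak3, which encodes IRAK-M, a kinase-dead relative of the IRAK kinases that restrains signalling from the IL1 receptor and is best known in macrophages. It was at 1.40, 2.20, 1.61, 1.25 and 3.14 in WT livers. It was at 1.15, 0.562, 0.549, 1.03 and 0.672 in THRB-KO livers. All 5 THRB-KO mice were below all 5 WT mice, by a log2 fold change of -1.27 (SE 0.30, edgeR adjusted p = 0.066). The call was lost without WT mouse 2 (adjusted p = 0.16), WT mouse 5 (0.1503) or THRB-KO mouse 3 (0.168) in the same edgeR test. Irak3 was low, with 15 to 84 counts per library, and 220 of its 3676 exon bases are shared with Gm47009 and Tmbim4 on the other strand.

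Jak3, a kinase of lymphoid cytokine receptors that is named here after its values were seen, had an adjusted p of 0.158 in the edgeR test. It was at 30.0, 26.4, 25.4, 23.3 and 25.97 in WT and at 27.0, 12.6, 9.81, 9.77 and 13.3 in THRB-KO livers. In 4 of 5 THRB-KO mice the value was far below the lowest WT value, and THRB-KO mouse 1 was inside the WT range. The log2 fold change was -0.85 (SE 0.26) with all mice and -1.21 (SE 0.12, edgeR adjusted p = 0.00099) without THRB-KO mouse 1. It was called with DESeq2 (-0.85, adjusted p = 0.018), with limma-voom (-1.10, adjusted p = 0.013) and with edgeR without robust settings (adjusted p = 0.12). Jak3 shares 404 of its 5352 exon bases with Insl3 on the same strand, and reads there were not counted for either gene.

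Among receptors, Il1rap, the partner of IL1R1, was fitted higher in THRB-KO livers while Il1r1 was fitted lower. It was at 144, 100.2, 123, 142 and 119.6 in WT and at 126, 198, 146, 151 and 148 in THRB-KO livers, with 4 of 5 THRB-KO mice above every WT mouse. The log2 fold change was 0.29 (SE 0.13, edgeR adjusted p = 0.35). Sigirr, which encodes a receptor that dampens IL1 signals, was at -0.24 (SE 0.12, edgeR adjusted p = 0.40) on the log2 scale. Neither passed the threshold, and the difference between the receptor genes was not tested.

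Of the other genes in the list of inhibitors, Nfkbie had a log2 fold change of -0.44 (SE 0.15, edgeR adjusted p = 0.19). That of Nfkbiz, which IL1 induces and which acts in the nucleus, was -0.38 (SE 0.16, edgeR adjusted p = 0.32). Both were opposite in sign to Nfkbia, and their effect on NF-kB activity was not tested. Nfkbiz was at 10.6 to 14.2 in WT livers and at 7.81 to 8.95 in 4 THRB-KO livers, with THRB-KO mouse 1 at 14. Without that mouse its log2 fold change was -0.58 (edgeR adjusted p = 0.019). Stat2, a factor of interferon signalling, was at -0.34 (SE 0.13, edgeR adjusted p = 0.26) and Rel, which encodes an NF-kB subunit of blood cells, at -0.30 (SE 0.19, edgeR adjusted p = 0.52). Within the C/EBP family, Cebpg was at 0.34 (SE 0.13, edgeR adjusted p = 0.26) and Cebpe at 0.29 (SE 0.14, edgeR adjusted p = 0.38), both above 0 where Cebpb and Cebpd were below.

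**Figure D3:**
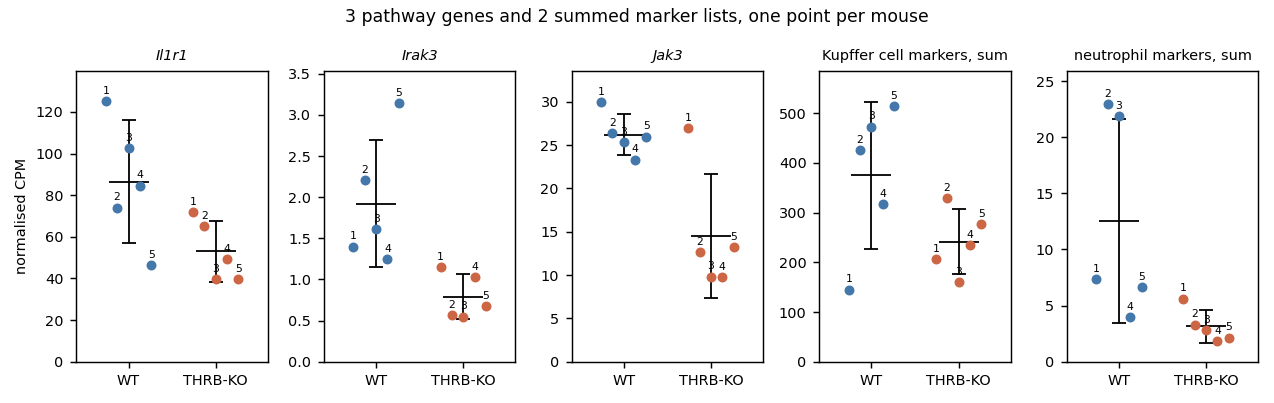
Normalised CPM (vertical axes, from 0) of Il1r1, Irak3 and Jak3 and of the summed Kupffer cell and neutrophil markers, one point per mouse with its replicate number, with the mean and SD as bars. Irak3 does not overlap between the genotypes, and the Kupffer cell sum does (145 to 514 in WT, 160 to 329 in THRB-KO).

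Several of these genes are also expressed by cells other than hepatocytes, and in whole liver RNA fewer cells of a type and less RNA per cell cannot be told apart. Of the 10 Kupffer cell markers, the resident macrophages of the liver, 10 were fitted lower and 0 were called, with a median log2 fold change of -0.66. Their summed level was 145, 426, 473, 318 and 514 in WT and 206, 329, 160, 235 and 277 in THRB-KO livers, and none was at 0 in any library. In WT livers Irak3 was highest in mouse 5, where this sum was highest too, but in THRB-KO livers it was at 0.562 in mouse 2, with the highest sum, and highest in mouse 1, with a sum of 206. Il1r1 was lowest of its genotype in WT mouse 5 and highest in WT mouse 1, where the sum was lowest of all 10 livers. The part of these cells in the values of Irak3 and Il1r1 was not tested.

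Neutrophil markers summed to 3.95 to 22.9 in WT and 1.85 to 5.63 in THRB-KO livers (two-sided exact permutation p = 0.016 on the log2 sums). Of 8 markers, 2 passed the filter on low counts and 1 was called, S100a8 (log2 fold change -2.67, edgeR adjusted p = 0.13), and Ly6g was at 0 in all 5 THRB-KO and in 2 WT livers. Of the other lists, 0 of 2 monocyte, 0 of 8 endothelial and 0 of 3 cholangiocyte markers tested were called, no lymphocyte marker passed the filter, and 1 of 8 stellate cell markers was called, Des (0.67, edgeR adjusted p = 0.057). All 8 stellate cell markers were fitted higher, and their sum was higher too (exact permutation p = 0.032). For the other lists of cell markers the exact permutation p ran from 0.063 (cholangiocyte) to 0.48 (hepatocyte). These p-values were not adjusted over the lists. Of 10 tested genes that respond to glucocorticoids, hormones that act with IL6 on the acute-phase genes, 1 was called, Mt1 (-2.68, edgeR adjusted p = 0.082), and the median of the list was -0.11. S100a8, Ly6g, Des and Mt1 are named after their values were seen.

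Transcripts of the cytokines that start these pathways were scarce in all 10 livers. Il6 had 0 to 3 counts per library and was at 0 in 2 WT and 1 THRB-KO livers. Osm had 0 to 2 counts, Lif 0 to 7 and Tnf 0 to 9. Il6 and Osm thus stayed at or below the floor of 3 counts in every liver, and a difference between the genotypes was not detectable at this depth. Il1b was measurable, at 1.44, 1.85, 2.07, 1.95 and 2.77 in WT and at 1.95, 1.20, 0.892, 3.15 and 0.955 in THRB-KO livers, with the highest and the lowest liver both in the THRB-KO group. Its log2 fold change was -0.30 (SE 0.33, edgeR adjusted p = 0.75).

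Il1a, the other IL1 agonist, was at -0.42 (SE 0.32, edgeR adjusted p = 0.62) and Il1rn, which encodes the IL1 receptor antagonist, at -0.18 (SE 0.35, edgeR adjusted p = 0.89) as log2 fold changes. The lowest unadjusted p among the tested ligands belonged to Il33, an alarmin of the IL1 family, and Clcf1, a ligand of the gp130 family, at -0.44 (SE 0.21, edgeR adjusted p = 0.38) and -0.51 (SE 0.28, edgeR adjusted p = 0.46). Both were near the filter on low counts, at 0.761 to 1.95 and 0.566 to 1.93. Cytokines made outside the liver do not show in these data.

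**Figure D4:**
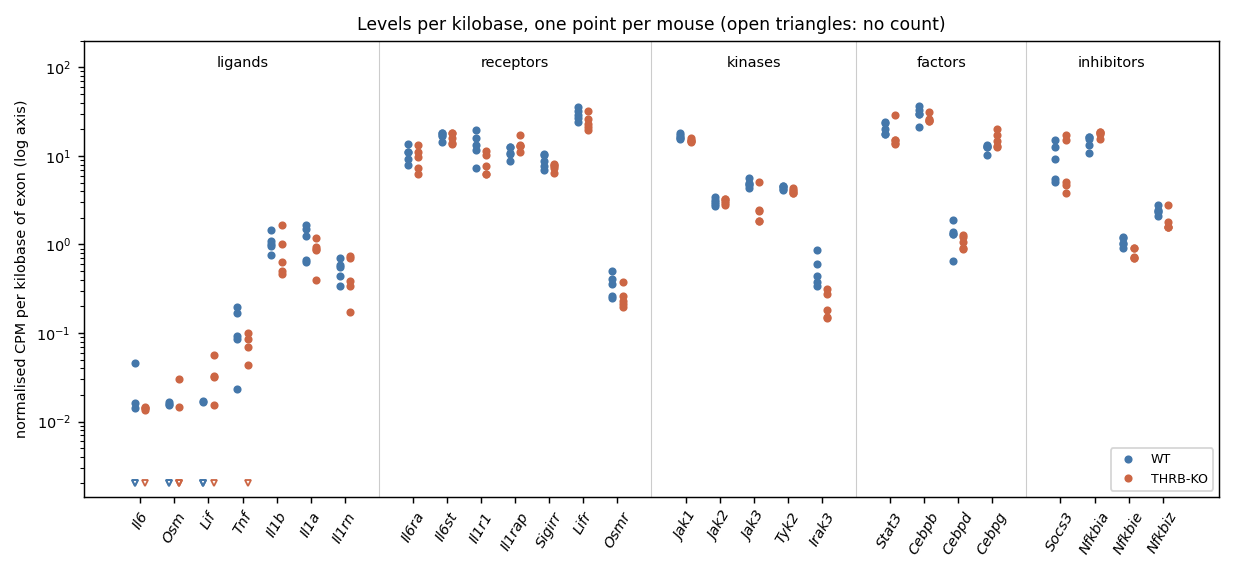
Normalised CPM per kilobase of exon (vertical log axis) of ligand, receptor, kinase, factor and inhibitor genes, one point per mouse, with open triangles at the foot for livers with no count. Receptor and factor genes such as Il6st (16.8 in WT) and Cebpb (30.3 in WT) stand well above Cebpd (1.31) and the ligands, with Il1b at 1.06 and Il6 at 0.015.

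Per kilobase of exon, which lets genes of different length be compared, Cebpb was the highest of the 10 genes in WT livers, at 30.3 ± 5.77 normalised CPM per kilobase (SD, n = 5). Stat3 followed at 20.7 ± 3.15, then Il6st at 16.8 ± 1.55, Jak1 at 16.7 ± 0.985, Nfkbia at 14.5 ± 2.40 and Il1r1 at 13.6 ± 4.67. Il6ra at 10.6 ± 2.19 and Socs3 at 9.53 ± 4.45 came next, Jak2 was at 3.04 ± 0.275, and Cebpd was lowest at 1.31 ± 0.437. Neighbours from Il6st to Socs3 differed by no more than the larger of their SDs, while Cebpb and Stat3, Stat3 and Il6st, Socs3 and Jak2, and Jak2 and Cebpd were each apart by more than the SD of either gene. The C/EBP genes thus stood at both ends of the order.

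Of the other partners of gp130, named here after their values were seen, Lifr, which encodes the LIF receptor, was at 29.5 per kilobase in WT livers, above Il6st, whereas Osmr, the oncostatin M receptor, was at 0.354. Il1rap, at 11.1 ± 1.598 in WT and 13.6 ± 2.34 in THRB-KO livers (SD, n = 5 each), was at a level like that of Il1r1, which was at 13.6 ± 4.67 and 8.34 ± 2.32. The mean of Il1r1 was the higher of the pair in WT livers, within the spread between mice, and that of Il1rap in THRB-KO livers.

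Saa1, the reference for the response downstream, was at 1010, 7135, 265, 822 and 3669 in WT and at 66.1, 158, 25.8, 33.0 and 112 in THRB-KO livers. All THRB-KO mice were below all WT mice, and within each genotype the highest liver exceeded the lowest many times over. The log2 fold change was -5.03 (SE 1.0, edgeR adjusted p = 0.048), and the difference of mean log2 values was -4.49 (two-sided exact permutation p = 0.0079, which no arrangement of 5 mice against 5 can undercut). Saa1 was taken as the reference with its fall in these data already known, so these p-values are not independent evidence. Without WT mouse 2 the log2 fold change was -4.20 (edgeR adjusted p = 0.087), and the adjusted p was above 0.05 in 8 of the 10 edgeR tests with a mouse left out, up to 0.12, and below 0.15 in all. Since Saa1 separates the genotypes, its relation to each of the 10 genes was taken over the 10 mice after the mean of each genotype had been removed, on log2 CPM, with permutation of the mice within genotype and adjustment over the 10 relations.

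With all mice, none of the 10 genes followed Saa1. Pearson's r was negative for 9 of them and lay between -0.57 for Il6st (permutation p = 0.078, adjusted p = 0.60) and 0.27 for Il6ra (permutation p = 0.43, adjusted p = 0.60). Spearman's rho of these genes was -0.60 (permutation p = 0.077, adjusted p = 0.77) and 0.32 (permutation p = 0.36, adjusted p = 0.78). The feedback gene Socs3 gave r = -0.23 (permutation p = 0.49, adjusted p = 0.60) and rho = -0.02 (permutation p = 0.97, adjusted p = 0.97). Stat3 gave r = -0.23 (permutation p = 0.49, adjusted p = 0.60), Il1r1 r = -0.32 (permutation p = 0.45, adjusted p = 0.60), Nfkbia r = -0.31 (permutation p = 0.52, adjusted p = 0.60), and Cebpb r = -0.38 (permutation p = 0.42, adjusted p = 0.60). Jak1 was at -0.50 and Jak2 at -0.26, with adjusted permutation p of 0.60 for both.

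**Figure D5:**
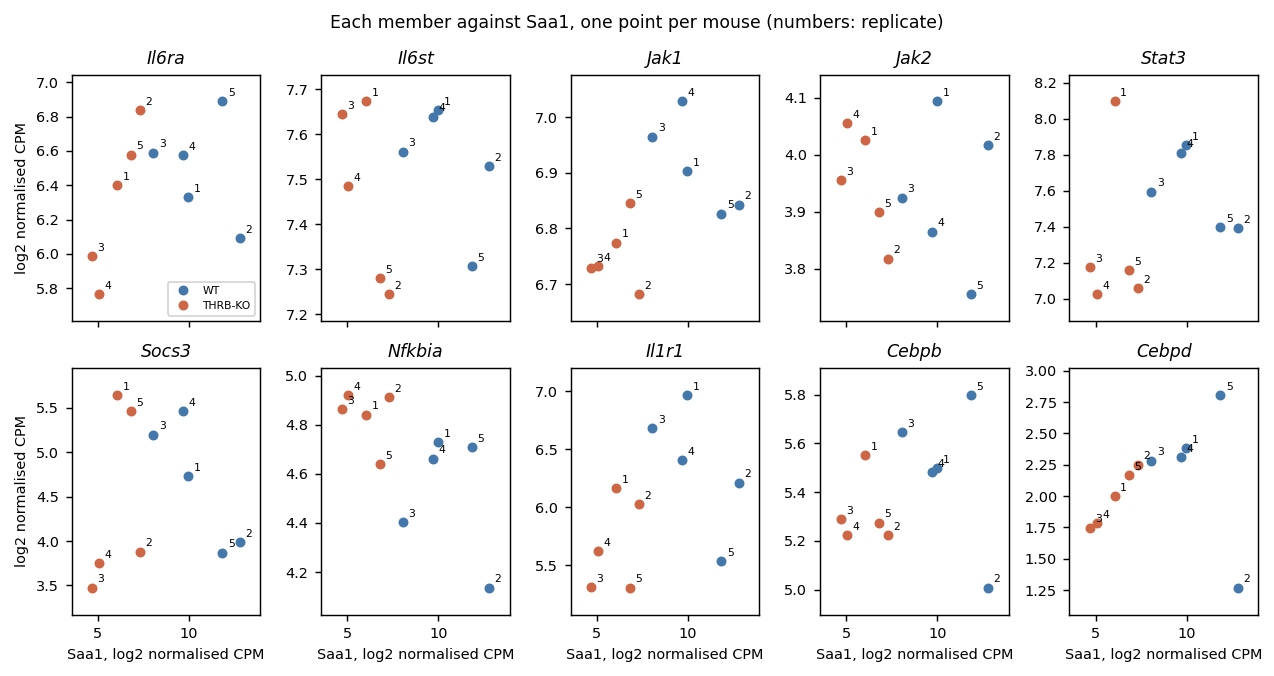
Log2 normalised CPM of each of the 10 genes (vertical axes) against that of Saa1 (horizontal axes), one point per mouse with its replicate number, WT in blue and THRB-KO in orange. In the Cebpd panel 9 mice rise together and WT mouse 2, with the highest Saa1 (7135) and the lowest Cebpd (2.41), lies far below them. The mean of each genotype is not removed here, so part of that rise is the difference between the genotypes.

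For Cebpd the sign of Pearson's r with Saa1 turned on 1 mouse. Over all 10 mice its r with Saa1 was -0.13 (permutation p = 0.81, adjusted p = 0.81), and rho was 0.32 (permutation p = 0.42, adjusted p = 0.78). In the THRB-KO livers its order from high to low was mouse 2, 5, 1, 4 and 3, which is also the order of Saa1. In the WT livers other than mouse 2 its order was mouse 5, 1, 4 and 3, again that of Saa1. WT mouse 2 had both the most Saa1 and the least Cebpd, 69 counts, of all 10 livers.

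Without WT mouse 2, r of Cebpd with Saa1 over the other 9 mice was 0.94 (adjusted permutation p = 0.0035, which rests on the smallest p these arrangements allow). Without the 2 mice whose Saa1 lay farthest from the mean of their genotype, WT mice 2 and 3, it was 0.997 over 8 mice (permutation p = 0.0014, adjusted p = 0.014). The adjustment covered the 10 genes and not the choice of mice left out, so these p-values do not establish a relation. With any other mouse left out r stayed between -0.42 and -0.11, so that the sign of Pearson's r was set by whether WT mouse 2 was included. Spearman's rho was positive with that mouse included. In that liver Cebpb and Nfkbia were also the lowest of all 10, at 32.2 and 17.6, and Socs3 was low at 15.8. Its sum of neutrophil markers, 22.9, was close to the 21.9 of WT mouse 3, in which Saa1 was the lowest of the WT livers and Cebpd was at 4.86.

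Leaving out those 2 mice moved other genes as well, and none passed the adjusted threshold of 0.05 apart from Cebpd. Il6ra then gave r = 0.90 (permutation p = 0.012, adjusted p = 0.0625) and Il6st r = -0.84 (permutation p = 0.036, adjusted p = 0.12), opposite in sign for the chains of the same receptor. Socs3 was at 0.05 and Stat3 at -0.20 (permutation p = 0.91 and 0.73). In the THRB-KO group the livers with most Saa1, mice 2 and 5, were the highest for Il6ra, at 114 and 95.6, and the lowest for Il6st, at 152 and 155.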

How the data were processed

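The authors mapped stranded liver mRNA reads to GRCm38 (mm10) with HISAT2 2.2.1 and counted them without strand per Ensembl gene with HTSeq 0.9.1, versions as in the submitters' processing notes, leaving out reads that mapped to several places or genes, and deposited raw counts. The deposited table of their edgeR 3.36.0 comparison (fold changes, p-values) was not used. Groups follow the genotype labels. The p-values set the genotype difference against the spread between these mice. Whether the mice were litter mates is not given, so whether litter and genotype coincided is not known.

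Genes reaching 1 CPM in 5 or more libraries were tested with edgeR 4.0.16 in R 4.3.3 (TMM, robust quasi-likelihood F-test, Benjamini-Hochberg). SE is the absolute log2 fold change over the square root of F. Alternatives were DESeq2 1.42.0, limma-voom (limma 3.58.1), RLE and upper-quartile scaling, no filter, filterByExpr, no robust settings, the replicate number as a block, and leaving out each mouse. For Saa1 they were rho, a prior count of 0.5 in place of 2, Saa2 or Hp as reference, and 2 mice left out. The fit was tested on simulated data. Symbols and exon lengths come from GENCODE M21.

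The 10 genes and all lists were chosen with earlier results of these data known. The text names the 10 genes, Thrb, Saa1, 7 ligands, in each role list the called genes or else the 2 with the lowest p, and the 5 genes most like the member with the lowest p. Jak3, Lifr, Osmr, Alb, S100a8, Ly6g, Des and Mt1 were named after their values were seen.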

Additional observations from a re-analysis of the deposited data

Results flagged for a closer look

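Among 78 groups of 5 mice, 6 held a mouse whose gap to the nearest other mouse took more of the group's range than Dixon's 95% limit allows, where chance gives about 3.9, or 1 in 20 groups. In 4 of the 6 this was THRB-KO mouse 1, high in each case. It was at 274 normalised CPM for Stat3 against 130.4 to 145 in the other THRB-KO mice, at 46.9 for Cebpb against 37.3 to 39.1, at 14 for Nfkbiz against 7.81 to 8.95, and at 27.0 for Jak3 against 9.77 to 13.3. For the gene Cebpg it was WT mouse 5, at 57.6 against 70.2 to 73.9. For Il6 it was THRB-KO mouse 2, at 0 against 0.033 to 0.035, which is 0 reads against 1 read in each of the others. Jak3 was checked after its values were seen, and several other genes because of a low p. The rate by chance is thus only a rough guide.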

How the results depend on the processing

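Of the 10 genes, 0 were called at 0.15 and 1 with DESeq2 and with limma-voom (Il1r1 in both), and 0 to 1 with a mouse left out (Il1r1 without WT mouse 5, Stat3 without THRB-KO mouse 1). At 0.05 the count of 0 became 0 to 1 with a mouse left out. The 1 other pathway gene became 3 with DESeq2, 4 with limma-voom, 2 without robust settings and 0 to 6 with a mouse left out, 0 without WT mice 2 or 5 or THRB-KO mouse 3 and 6 without THRB-KO mouse 1. The cause was not tested. Signs turned, with no call, for Jak2 (-0.023 to 0.062), Socs3 (-0.40 to 0.19) and Il1rn (-0.40 to 0.037) with a mouse left out. The genes related to Saa1 went from 0 to 1 without the 2 farthest mice and from 0 to 1 with a mouse left out. There Cebpd went to r = 0.997, Cebpb to 0.39 and Socs3 to 0.049 without the 2 farthest mice, rho of Cebpd was 0.32, and with a mouse left out r ran from -0.42 to 0.94 for Cebpd, from -0.72 to 0.23 for Cebpb and from -0.61 to 0.32 for Nfkbia. Thrb kept its direction and its side of 0.15 in all 18 alternatives, and its adjusted p was above 0.05 in 11 of them.

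Mice of the same replicate number did not deviate together (correlations of -0.20 to 0.0091, none the best match of its number). With the number as a replicate block, the 10 genes again gave 0 calls and the pathway 1, which was Jak3 (-0.96, adjusted p = 0.039, edgeR) in place of Irak3 (-1.24, adjusted p = 0.17, edgeR). With 5 mice per group and 1 liver setting several values, small changes in the 10 genes may be missed, and at the floor of 3 counts or below, as for Il6, a difference was not detectable.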
